A study of Homo sapiens with 15 samples.

Results

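Of the 14432 gene regions in the authors' table of transcription start sites, 2171 (15.0%) spanned 5000 bases or less, counted as end minus start plus 1 on genome build hg19, and these short genes are described here. Their lengths ran from 1002 to 4994 bases, with a median of 2716. They were split by nuclear RNA: 698 (32.2%) had a mean of 5 or more counts-per-million (CPM) over both RNA libraries and 1473 had less, whereas 64.7% of the 12261 longer genes reached that level. The rule uses length and RNA alone and no PAR-CLIP or ChIP value, although it was set with earlier results of these data known. Just inside the limit lay ZIC2 (4994 bases), ZNF705G (4993) and CCL16 (4989), and just outside lay CD1C and GPR33 (5002 each) and CDKN1B (5004). ZIC2 and CDKN1B were transcribed, and the other 4 had at most 0.127 CPM in either RNA library and no PAR-CLIP cluster.

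Every library was made from 1 line, HEK293T T-REx, which derives from human embryonic kidney and is built to carry an inducible transgene. The 2 PHC1 PAR-CLIP libraries and the 2 PHC1 ChIP libraries were made from cells with a PHC1 transgene, grown in hygromycin and pulled down on streptavidin beads. The 2 PHC1-dFCS ChIP libraries came from cells with a PHC1-dFCS transgene, also on streptavidin beads. The remaining libraries carried no transgene: 1 RNAPII PAR-CLIP library with 4-thiouridine (4SU), 1 with 6-thioguanosine (6SG), 2 of total nuclear RNA from nuclei of crosslinked cells, and ChIP of H3K4me3, H3K27me3, EZH2 and RNAPII with their input, at 1 library apiece. PAR-CLIP cells, the PHC1 cells included (4SU), took up their nucleoside overnight at 100 uM before crosslinking, and the RNA cells had no treatment. For the RNAPII PAR-CLIP libraries the labels list an antibody to the C-terminal domain, while their protocol text names streptavidin beads. No PHC1 library without the transgene and no bead control was analysed here, and the labels do not say whether numbered replicates were separate cultures, so every p-value measures only how far these libraries spread, and that spread may be technical.

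PHC1 is a subunit of Polycomb repressive complex 1, which keeps genes silent, often together with EZH2, the enzyme of Polycomb repressive complex 2 that places H3K27me3. PAR-CLIP crosslinks a photoreactive nucleoside in RNA to a bound protein, so that the reads mark RNA that was touching the protein. Short genes have few or no introns: in human cells many encode ribosomal proteins, mitochondrial proteins, histones and rapidly induced transcription factors, while olfactory receptors and keratin-associated proteins are short genes that stay silent outside their own tissue.

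The 2 groups of short genes differed in promoter sequence. RefSeq promoters (GRCh38.p14), cut to the 250 bases before the start site, were matched by gene symbol or number for 545 of the 698 transcribed short genes and 961 of the other 1473. The promoters printed here, 5′ to 3′ on the strand of the gene, are those of the short genes with the highest nuclear RNA (HSPA8) and the highest RNAPII (DDIT4), H3K4me3 (MRPL55), H3K27me3 (NEUROG3) and PHC1-dFCS (SBSN) ChIP score among those with an entry. Capitals mark GGGCGG, the GC box, and CCAAT on either strand (CCGCCC and ATTGG on the other).
HSPA8: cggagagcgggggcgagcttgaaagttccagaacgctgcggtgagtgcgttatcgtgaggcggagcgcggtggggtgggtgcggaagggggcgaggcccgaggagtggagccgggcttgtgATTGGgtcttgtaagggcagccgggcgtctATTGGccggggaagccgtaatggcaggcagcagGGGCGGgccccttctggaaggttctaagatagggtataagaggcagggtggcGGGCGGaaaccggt
DDIT4: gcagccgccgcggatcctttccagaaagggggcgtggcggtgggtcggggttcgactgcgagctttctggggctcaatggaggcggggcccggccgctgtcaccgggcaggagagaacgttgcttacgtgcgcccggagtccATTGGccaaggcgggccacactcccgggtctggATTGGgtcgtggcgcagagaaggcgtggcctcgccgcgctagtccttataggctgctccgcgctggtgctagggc
MRPL55: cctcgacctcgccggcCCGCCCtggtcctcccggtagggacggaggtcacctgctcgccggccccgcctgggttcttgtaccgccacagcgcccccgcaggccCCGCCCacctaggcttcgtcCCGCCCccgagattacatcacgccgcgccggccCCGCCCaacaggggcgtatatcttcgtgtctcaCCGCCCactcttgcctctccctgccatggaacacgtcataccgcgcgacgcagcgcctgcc
NEUROG3: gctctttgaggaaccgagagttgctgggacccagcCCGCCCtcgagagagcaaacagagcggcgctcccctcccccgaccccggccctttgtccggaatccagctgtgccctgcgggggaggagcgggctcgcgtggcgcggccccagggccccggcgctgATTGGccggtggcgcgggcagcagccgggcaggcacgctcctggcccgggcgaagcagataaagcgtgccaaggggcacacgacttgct
SBSN: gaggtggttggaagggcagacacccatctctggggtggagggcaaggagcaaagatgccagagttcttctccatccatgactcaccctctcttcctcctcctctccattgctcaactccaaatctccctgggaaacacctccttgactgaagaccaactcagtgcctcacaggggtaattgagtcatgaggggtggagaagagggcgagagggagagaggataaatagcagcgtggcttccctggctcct
HSPA8 encodes a constitutive heat shock protein 70, DDIT4 an inhibitor of mTOR signalling induced by stress, MRPL55 a protein of the mitochondrial ribosome, NEUROG3 a transcription factor of pancreatic endocrine development, and SBSN a protein of the epidermis. MRPL55 held 5 GC boxes, HSPA8 2 GC boxes and 2 CCAAT, DDIT4 2 CCAAT, NEUROG3 1 of each and SBSN neither. The SBSN window held 2 CpG dinucleotides, against 22 to 30 in the other 4.

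Over all matched promoters the transcribed short genes had a median GC content of 65.6% and a CpG observed over expected ratio of 0.846, against 57.2% and 0.364 in the other short genes. Longer transcribed genes were alike, at 65.6% and 0.829. GGGCGG on either strand occurred in 390 (71.6%) of the transcribed and 392 (40.8%) of the other short genes, beside 42.3% of all 27305 RefSeq promoters of the same length. CCAAT on either strand occurred in 223 (40.9%) and 307 (31.9%), beside 33.0%. The TATA sequence TATAAA, on either strand anywhere in the window, occurred in 44 (8.07%) and 185 (19.3%), beside 11.1%. Placed 20 to 40 bases before the start on the strand of the gene, TATAAA was found in 28 (5.14%) transcribed short genes, but in 0.994% of longer transcribed genes and 2.55% of all RefSeq promoters. It was also found there in 113 (11.8%) of the other short genes and 5.78% of longer genes below the RNA limit. These shares describe letters in a window and carry no test.

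The PAR-CLIP libraries held 696186 and 698056 clusters for PHC1, 667937 for RNAPII with 4SU and 45259 for RNAPII with 6SG, and the RNA libraries held 47187882 and 49626658 gene reads. The short genes took 4602 and 3943 of the PHC1 clusters, 7957 of the 4SU and 689 of the 6SG clusters. They held 1.31% and 1.02% of the PHC1 cluster coverage that fell in gene regions, 2.35% of the 4SU and 3.57% of the 6SG coverage, but 6.02% and 5.86% of the RNA reads. In PHC1 replicate 1 the 10 largest clusters made up 22.6% of the coverage, against 3.72% in replicate 2. The cells matched their label by markers: of 8 measured genes known from HEK293 cells 6 had 5 CPM or more (VIM, PAX2, INA, CDH2, LIN28B and NEFL), and none of the fibroblast, blood, keratinocyte or hepatocyte markers did.

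PHC1 PAR-CLIP coverage lay far under nuclear RNA at most transcribed short genes. For each gene the coverage of its clusters was summed over bases and, like its RNA reads, scaled to CPM with TMM factors, and this scaled CPM is the unit of every PAR-CLIP and RNA value from here on. The median over the 698 genes was 6.90 and 5.06 CPM in PHC1 replicates 1 and 2, 13.3 in RNAPII 4SU and 0 in RNAPII 6SG, against 28.6 and 28.7 in the RNA libraries. Over the longer genes with the same RNA minimum the medians were 58.9 and 56.8 for PHC1, 64.3 for 4SU, 38.2 for 6SG, and 70.3 and 71.2 for RNA. On this scale both PHC1 values were near the RNA values in longer genes and several-fold under them in short ones. TMM sets the level of each library by the bulk of genes, and 85.0% of all genes were longer ones. Nearness in longer genes thus follows in part from the scaling, and the short genes were low relative to longer ones. Both PHC1 values lay below both RNA values in 614 of the 698 short genes (88.0%), against 52.5% of longer genes, and above both in 44 (6.30%), against 39.7%.

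On the scale of log2(CPM + 1), the median PHC1 difference from RNA was −2.54 over the 698 short genes (quartiles −3.35 and −1.25), −0.28 over longer genes and −0.43 over all genes with 5 CPM or more. With 1 PHC1 library at a time the median was −2.32 and −2.62 (SD 0.214, n = 2). The size of this value depends on the added 1, because 93 short genes (13.3%, against 2.22% of longer genes) had no cluster in either PHC1 library, and with 5 added in place of 1 it was −1.61. Over the 528 short genes with a cluster in both PHC1 libraries it was −1.95, against −0.18 over 7531 such longer genes.

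In the limma fit of PHC1 against RNA, run over 9576 genes of any length, 570 of the 686 short genes tested with 5 CPM or more were lower in PHC1 (83.1%), 30 were higher (4.37%) and 86 were not called (Benjamini-Hochberg adjusted p under 0.05, 2-sided). Of all genes tested, 43.4% were lower and 38.7% higher, and of those with 5 CPM or more 48.3% were lower and 32% higher. The share of short genes called lower was therefore well above the background and the share called higher well below it. To enter the test, a gene needed at least 5 CPM in 2 of the 4 libraries. Of the 686, 349 entered through RNA alone, which selects genes with little PHC1 coverage, and 332 of these were lower and 17 not called. The 335 that met the minimum in all 4 libraries had 238 lower, 29 higher and 68 not called, with a median log2 fold of −1.62, and the 6810 longer genes in the same position had 2616 lower and 2713 higher, with a median of −0.00. When RNA replicate 1 or 2 was left out only 409 of the short genes could be tested, and 265 (64.8%) or 270 (66.0%) of them were lower, and the count of higher genes became 62 without PHC1 replicate 2, 19 without RNA replicate 2 and 18 when libraries were scaled by their totals alone. With 1 library left out, the lone library of its kind was assumed to vary like the pair of the other kind, and since RNA replicates differ little (a median of 0.077 at short genes), small differences gain a call when a PHC1 library is left out. PHC1 libraries differed more from each other at short genes, with a median absolute difference of 0.46 on the log2 scale against 0.22 at longer genes, and replicate 1 was the higher one by a median of 0.35.

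**Figure D1:**
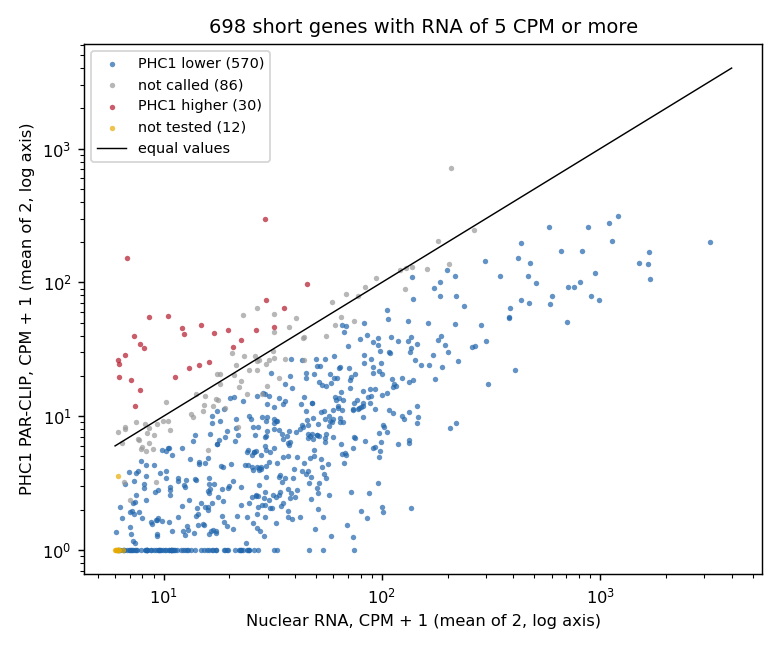
Mean CPM plus 1 of the 2 PHC1 PAR-CLIP libraries (y axis, log scale) against that of the 2 nuclear RNA libraries (x axis, log scale) for the 698 transcribed short genes, 1 point per gene, coloured by the limma call, with the line of equal values. The 570 genes called lower lie under the line at every RNA level, the 30 called higher lie mostly at low RNA, and the row of points at 1 is the genes with no PHC1 cluster.

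The difference changed with length on both sides of the 5000-base limit. Over genes with 5 CPM or more, the median log2 difference of PHC1 from RNA was −2.62 for 116 genes of 1 to 2 kb, −2.60 for 196 of 2 to 3 kb, −2.46 for 201 of 3 to 4 kb and −2.39 for 185 of 4 to 5 kb. It was −1.79 for 358 genes of 5 to 7 kb, −1.47 for 522 of 7 to 10 kb, −0.55 for 2380 of 10 to 30 kb and 0.00 for 2939 of 30 to 100 kb. It was 0.09 for 1393 genes of 100 to 300 kb and −0.09 for 337 longer ones. The medians thus rose with length up to 300 kb. The step at the limit, from −2.39 to −1.79, was larger than those among the short bins, but bins are wider above the limit. The step at 10 kb, from −1.47 to −0.55, was larger still. RNAPII 4SU coverage over RNA followed the same order at smaller size: −1.39, −1.34, −1.24 and −1.11 in the 4 short bins, 0.07 at 30 to 100 kb, 0.21 at 100 to 300 kb and −0.05 above. Both ratios share the 2 RNA libraries, and how RNA reads were counted within a gene, over exons or over the whole region, is not given in the sources used here. Its part in the trend was not tested.

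**Figure D2:**
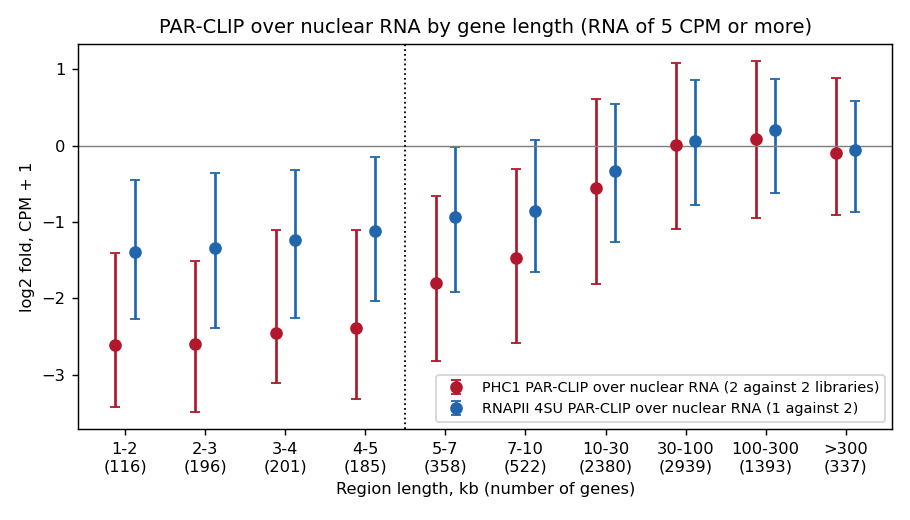
Median and quartiles over genes of the log2 difference from nuclear RNA, for PHC1 PAR-CLIP and RNAPII 4SU PAR-CLIP, by region length in kb, for genes with RNA of 5 CPM or more (number of genes under each bin). Both series rise with length up to 300 kb and are lower above it, and PHC1 lies furthest under RNAPII in the short bins.

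The contrast between short and longer genes was present at each RNA level. Short genes of 5 to 10 CPM had a median difference of −2.19 (141 genes), those of 20 to 50 CPM −2.51 (205 genes) and those above 300 CPM −2.82 (34 genes). Longer genes in the same ranges had −0.21, −0.58 and −0.30. At matched RNA per kb of region the gap was smaller at the top: from 5 to 10 CPM per kb the medians were −2.26 (164 short genes) and −0.65 (876 longer genes), and above 50 they were −2.78 (74 short) and −1.79 (48 longer). Per kb of region the short genes did not hold less PHC1 coverage: their median was 1.95 CPM per kb, against 1.45 in longer genes, while RNA was 9.43 against 1.65 and RNAPII 4SU 4.47 against 1.65. Short genes thus held the most RNA per base, and PHC1 coverage per base was higher than in longer genes by a far smaller factor.

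Grouping by the RNAPII ChIP score at the start site, a measure independent of the RNA libraries, gave the same order. Among start sites with a score of 10 to 20 reads per 10M over input, 314 were of short genes and 3030 of longer ones. At the short ones RNA, PHC1 and RNAPII 4SU stood at medians of 9.60, 1.55 and 3.98 CPM per kb, and at the longer ones at 2.16, 1.97 and 2.06. The median log2 difference of PHC1 from RNA was −2.46 and −0.22 there, −2.26 (132 genes) and −0.06 at scores of 20 to 30, and −2.15 (49 genes) and −0.07 at 30 or more. Short genes with the same promoter score as longer ones thus had more RNA per base, and from 10 to 20 they had slightly less PHC1 coverage per base.

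PHC1 coverage of transcribed short genes came from a few clusters. Genes with any cluster held a median of 5 (replicate 1) and 4 (replicate 2), which covered 5.46% and 4.92% of the region, against 2.45% and 2.47% in longer genes. RNAPII 4SU gave a median of 8 clusters over 9.16% of the region. The largest cluster supplied a median of 45.1% and 44.1% of a short gene's PHC1 coverage, so that single clusters weigh heavily in the sums, and 84 and 99 genes rested on 1 cluster. Where strand was known (545 genes), 93.4% and 93.7% of the PHC1 coverage and 96.9% of the 4SU coverage lay on the strand of the gene.

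PHC1 and RNAPII coverage leaned towards opposite ends of the transcribed short genes. Each region was cut into 10 equal segments from 5′ to 3′ and each gene's coverage expressed as shares. The first segment held a mean of 7.25% of PHC1 coverage in replicate 1 (436 genes) and 5.68% in replicate 2 (416 genes), and the ninth segment held 13.7% and 15.3%. RNAPII had 17.6% (4SU, 513 genes) and 24.0% (6SG, 238 genes) in the first segment and 6.67% and 5.26% in the last. In longer genes PHC1 was nearly even, with 10.8% and 10.3% in the first segment and 11.6% and 11.1% in the last. There 4SU had 11.9% in the first and 15.0% in the last, and 6SG 15.9% and 13.7%. The tilt of PHC1 towards the 3′ part was thus seen in both replicates of the short genes, and the high first segment in both RNAPII libraries. For 6SG the first segment was the highest in longer genes too. RNA reads have no positions in the files, so the same profile could not be drawn for them.

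**Figure D3:**
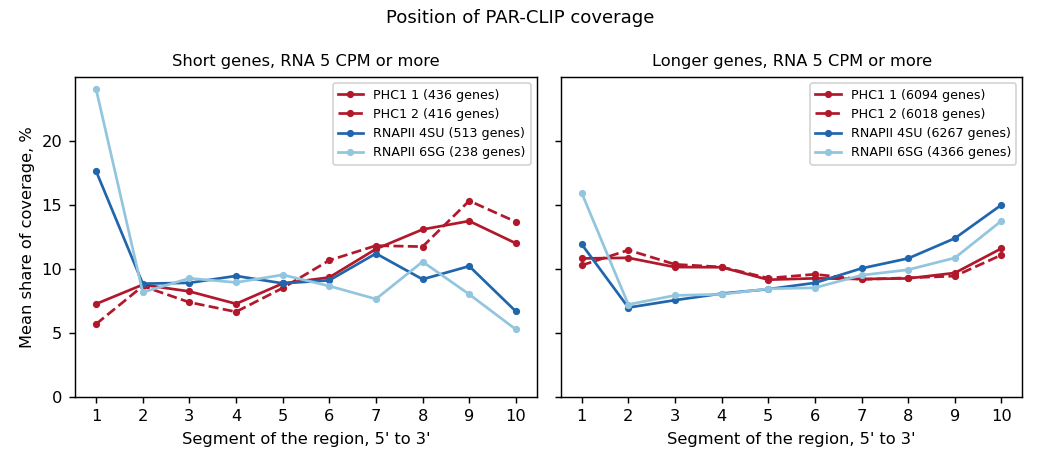
Mean share of a gene's PAR-CLIP coverage, in percent, in each of 10 equal segments of its region from 5′ to 3′, in separate panels for short and longer genes with RNA of 5 CPM or more, 1 line per library (numbers of genes in the legends). In short genes the RNAPII lines start at 17.6% and 24.0% and fall at the end, while the PHC1 lines peak in the ninth segment.

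Of the 6 short genes with the highest nuclear RNA 5 are housekeeping genes, and all 6 were lower in PHC1. So were 100% of the 34 short genes above 300 CPM, and choosing genes by high RNA favours a low ratio to RNA. HSPA8 had 256 and 144 CPM in the PHC1 libraries, 677 in RNAPII 4SU, 0 in 6SG, and 3247 and 3129 in RNA, a log2 fold of −4.04 (SE 0.30, limma adjusted p = 0.000632). GAPDH, the glycolytic glyceraldehyde-3-phosphate dehydrogenase, had 127 and 84.6 in PHC1, 235 in 4SU and 1732 and 1636 in RNA (−4.01). In neither gene did the PHC1 and RNA values come near each other, and RNAPII 4SU lay between them. The cytoskeletal genes ACTG1 (gamma actin) and TUBA1B (alpha tubulin) had folds of −3.35 and −3.61, and RPS4X, of the small ribosomal subunit, −3.46. IRS4, an insulin receptor substrate strongly expressed in this line, stood apart in its RNAPII values: 372 and 258 in PHC1, 1849 in 4SU, 1834 in 6SG and 1240 and 1167 in RNA (−1.95). It was the only one of the 6 whose RNAPII coverage exceeded its RNA.

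Among genes with a value above 0 in all 4 libraries, the lowest PHC1 coverage for their RNA was at UBL4A, a chaperone of tail-anchored membrane proteins. It had 1.22 and 0.872 CPM in PHC1, 4.33 in 4SU, 0 in 6SG, and 142 and 127 in RNA, a log2 fold of −6.06 (SE 0.18, limma adjusted p = 0.000142). YIF1A, which acts in transport between endoplasmic reticulum and Golgi, had 0.356 and 0.714 in PHC1 and 71.0 and 66.1 in RNA (−5.51). CFL2, the muscle form of the actin-severing protein cofilin, had 0.917 and 0.986 in PHC1 and 80.5 and 78.1 in RNA (−5.36). Each of these genes had a cluster in both PHC1 libraries, and the PHC1 and RNA values were far from overlapping. GADD45GIP1 (a mitochondrial ribosome protein, −5.07), RHOB (a small GTPase, −4.96), BEX3 (−4.91), ANXA2P2 (−4.75) and RPL7 (−4.68) completed the 8 lowest. All of these 8 but RPL7 had under 5 CPM in both PHC1 libraries, so they entered the test through RNA alone. Of the 349 short genes that entered so, 332 were called lower. At such low PHC1 values the size of the fold depends on the added 1. ANXA2P2 is an annexin A2 pseudogene and ribosomal protein genes have many processed copies, so reads of these could be split among near-identical loci.

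**Figure D4:**
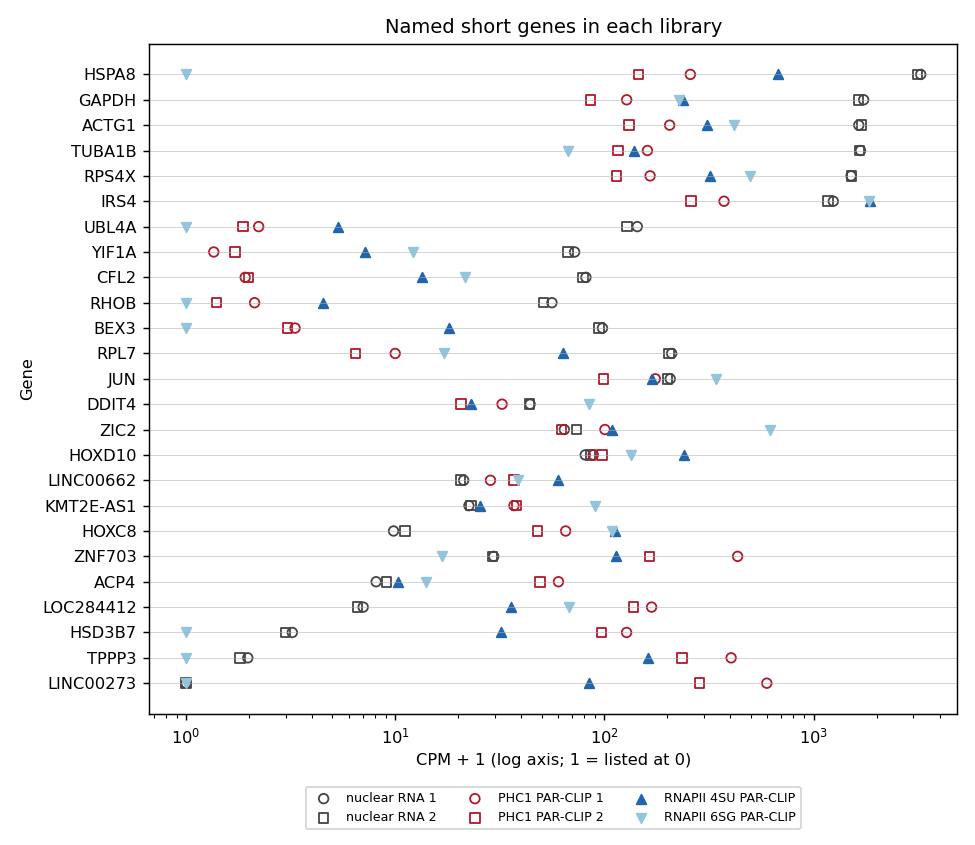
CPM plus 1 (log axis, 1 stands for a gene listed at 0) of named short genes, 1 symbol per library: 2 of nuclear RNA, 2 of PHC1 PAR-CLIP and 1 each of RNAPII PAR-CLIP with 4SU and 6SG. The PHC1 symbols lie left of the RNA symbols from HSPA8 to RPL7 and right of them from LINC00662 to LINC00273.

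The gene lists of translation and respiration moved in 1 direction. All 23 ribosomal protein genes among the transcribed short genes were lower in PHC1, with a median log2 difference of −2.94 beside −1.73 for 21 longer ribosomal protein genes, and −2.54 for all transcribed short genes. Their folds ran from −4.68 (RPL7) to −1.12 (RPS16, 217 and 176 in PHC1, 377 and 484 in RNA), and the RPS16 call was lost without either PHC1 replicate (limma adjusted p = 0.12 and 0.17). All 14 mitochondrial ribosome genes were lower as well (median −2.70, against −0.75 for 40 longer ones), among them MRPS34 with 19.4 and 16.1 in PHC1 and 143 and 133 in RNA (−2.90). Of 11 respiratory chain and ATP synthase genes 10 were lower (median −2.84, against −0.64 for 41 longer ones). NDUFB11, a complex I subunit, had 10.0 and 7.70 in PHC1 and 148 and 144 in RNA (−3.91), and COX6A1, a cytochrome oxidase subunit, 27.2 and 18.9 against 155 and 146 (−2.68). The exception, ATP5F1D of the ATP synthase, had 44.0 in PHC1 replicate 1 and 6.73 in replicate 2, beside 29.4 and 29.6 in RNA, and was not called (−0.71). With clusters counted (−1.66) or without the largest cluster (−2.89) it was called lower, and with 1 PHC1 library left out its difference was −1.98 or 0.56. These medians lay close to that of all transcribed short genes. Of all transcribed short genes tested 83.1% were lower, and at 50 to 100, 100 to 300 and above 300 CPM of RNA 92.8%, 87.7% and 100% were. The lists thus followed the short genes as a whole.

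Replication histone genes, which lack introns, were lower too: H3C10 had 85.4 and 59.2 in PHC1 and 462 and 409 in RNA (−2.59), and H2BC21 66.0 and 43.0 against 397 and 367 (−2.82). Histone genes are near-identical copies, so their counts are uncertain. SNHG10, which hosts small nucleolar RNAs in its introns, had 26.7 and 15.8 against 429 and 380 (−4.23). CBX8, the sole short gene on the list of PRC1 and PRC2 subunits, had no PHC1 cluster in either library, 3.52 in 4SU, and 15.3 and 13.3 in RNA. CBX8 entered the test through RNA alone and was called lower, and because PHC1 was listed at 0 no fold is given.

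Stress and growth response genes are often short. Of 19 transcribed immediate early genes 15 were lower in PHC1, none higher and 4 (JUN, JUND, ZFP36L2 and BTG2) not called, with a median of −2.98 beside −1.56 for 13 longer ones. That share of lower genes is near the 83.1% of all transcribed short genes tested. ID3, an inhibitor of helix-loop-helix factors, had 0.524 and 0 in PHC1, 10.9 in 4SU and 57.9 and 56.9 in RNA. IER5 had 7.32 and 4.44 in PHC1 and 74.7 and 73.8 in RNA (−3.48), and ID2 10.5 and 12.6 against 47.6 and 46.2 (−1.94). JUN, a subunit of the AP-1 transcription factor, had 174 and 98.1 in PHC1, 167 in 4SU, 340 in 6SG and 205 and 199 in RNA, a difference of −0.63 that did not pass (SE 0.30, limma adjusted p = 0.12). JUN was called lower with totals as scaling (−1.14), with clusters counted (−2.56), without the largest cluster (−1.42), with a replicate block and without PHC1 replicate 1 (−1.04) or 2 (−0.22). BTG2, an antiproliferative gene, had 17.9 and 24.8 in PHC1 and 23.2 and 24.2 in RNA (−0.16, adjusted p = 0.49 in limma). The PHC1 and RNA values of BTG2 overlapped, and both PHC1 values of JUN lay below its RNA values, by far less than those of ID3 from the same list. Leaving out PHC1 replicate 1 or 2 moved BTG2 to 0.061 or −0.39, the last of which was called.

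The integrated stress response list held 4 transcribed short genes, of which only ATF4 was called (lower). ATF4, its central transcription factor, had 156 and 133 in PHC1, 218 in 4SU and 304 and 286 in RNA (−1.03, SE 0.10, limma adjusted p = 0.00144). DDIT4, whose promoter is printed above, had 31.4 and 19.7 in PHC1, 21.9 in 4SU, 83.5 in 6SG and 43.1 and 42.9 in RNA (−0.77, SE 0.26, limma adjusted p = 0.0505). It was called lower with totals as scaling (−1.26), with 5 added (−0.68), with a replicate block and without PHC1 replicate 1 (−1.09) or 2 (−0.44). PPP1R15A, the phosphatase subunit that ends the response, had 92.5 and 34.6 in PHC1, 128 in 4SU, 340 in 6SG and 25.3 and 26.2 in RNA (1.11, SE 0.51, limma adjusted p = 0.11). It was called higher with clusters counted (0.42), without the largest cluster (0.73), with a replicate block and without PHC1 replicate 1 (0.41) or 2 (1.81). Both PHC1 values of PPP1R15A were above both RNA values, but the PHC1 libraries differed from each other by more than its second PHC1 value differed from RNA. The list median was −0.31, against 0.06 for 9 longer genes of the list. Of 5 p53 targets 4 were lower (median −1.63), near the 83.1% of all transcribed short genes tested. PMAIP1, a lower one that encodes the death protein NOXA, had 122 and 101 in PHC1 and 341 and 349 in RNA (−1.63).

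Developmental transcription factors had the widest range of the lists, from −4.63 to 2.42. Of 48 in the transcribed group 47 were tested: 35 were lower, 8 not called and 4 higher (83.1% and 4.37% of all transcribed short genes tested were lower and higher), with a median of −2.29 beside −1.05 for 76 longer ones. The name patterns of the list also take in 3 noncoding transcripts (HOXA11-AS, HOXD-AS2 and PAXIP1-DT) and ENKD1, which encode no such factor, and all 4 were lower. SOX4 had 52.0 and 44.0 in PHC1 and 219 and 213 in RNA (−2.15), FOXC1 116 and 84.4 against 180 and 187 (−0.88), and HES1, a target of Notch signalling, 12.3 and 12.3 against 79.1 and 73.0 (−2.53). ZIC2, the longest of the short genes, had 99.5 and 61.2 in PHC1, 108 in 4SU, 617 in 6SG and 63.3 and 72.5 in RNA, and was not called. Its difference of 0.20 was −0.14 without PHC1 replicate 1 and 0.55, then called, without replicate 2. CDKN1B, just over the limit, had 32.5 and 18.4 in PHC1 and 117 and 118 in RNA.

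All 4 factors that were higher belong to the HOX clusters, which set position along the body axis, and this family was looked at after its values were seen. Of 14 transcribed short HOX genes 13 were tested, with 4 higher (HOXA4, HOXC8, HOXD4 and HOXD9), 7 lower and 2 (HOXC9 and HOXD10) not called, and a median difference of −1.13. HOXC8 had 64.2 and 46.9 in PHC1, 112 in 4SU, 107 in 6SG and 8.81 and 10.1 in RNA (2.42, SE 0.21, limma adjusted p = 0.000993). HOXD9 had 47.7 and 38.9 in PHC1, 40.5 in 4SU and 18.1 and 19.5 in RNA (1.15). HOXD4 had 26.8 and 19.2 in PHC1, 51.6 in 4SU and 13.0 and 14.1 in RNA (0.70). At these genes RNAPII 4SU coverage was above RNA as well. The calls of HOXD4 and HOXA4 (0.67) were lost with totals as scaling, with no filter, with clusters counted in place of summed, without the largest cluster, without either RNA replicate and with a replicate block. HOXD10 had 87.3 and 96.6 in PHC1, 240 in 4SU and 79.9 and 84.7 in RNA, while HOXA11 had 2.47 and 0.838 in PHC1, 24.4 in 4SU, 68.5 in 6SG and 50.6 and 49.8 in RNA (−4.34). HOXD10 was not called, but with clusters counted it was lower (−1.50), and with clusters of its own strand (0.48) or without PHC1 replicate 1 (0.23) it was higher. HOX genes thus spread from −4.34 to 2.42. HOXD9, HOXD10 and HOXD4 had H3K4me3 ChIP scores of 0.81, 3.09 and −0.84 at the table's start sites, whereas HOXC8 had 42.2 and HOXA11 52.6.

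The 30 transcribed short genes that were higher in PHC1 had low RNA, with a median of 11.3 CPM (range 5.17 to 44.4) against 33.2 CPM for the 570 lower ones. They comprised 22 protein-coding genes, 5 lncRNA genes, 2 pseudogenes and 1 gene with no RefSeq match. H3K4me3 ChIP reached 2 times the input reads at 20 of them (66.7%), against 535 of the lower ones (93.9%). Where strand was known, most of the PHC1 coverage was antisense to the gene in 5 of 21 higher genes (23.8%) and 25 of 387 lower ones (6.46%). The RNAPII ChIP median was 5.64 in the higher and 12.5 in the lower genes. A ratio to RNA favours genes with little RNA, so the low RNA of the higher genes follows in part from how they were called, and the promoter scores move with it.

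LOC284412, an lncRNA gene at chr19:37756841-37759912 (hg19), led with 167 and 137 CPM in PHC1, 34.9 in 4SU, 66.4 in 6SG and 6.02 and 5.60 in RNA, a log2 fold of 4.48 (SE 0.15, limma adjusted p = 0.000143). Only 16.6% and 8.90% of its PHC1 coverage lay on its own strand, and with that strand alone its fold was 1.85. ACP4, an acid phosphatase gene at chr19:51293672-51298481, had 59.3 and 48.3 in PHC1 and 7.10 and 8.07 in RNA (2.67), with none of that coverage on its strand. PPM1M, a protein phosphatase, had 45.6 and 21.2 against 6.44 and 7.22 (2.04) with 8.26% and 9.61% on its strand. With clusters on the strand of the gene alone, ACP4 was listed at 0 in both PHC1 libraries and PPM1M had a difference of −0.82 that was not called, so both calls rested on clusters of the other strand. VAMP2, a vesicle fusion protein (2.12), and ADM5, of the adrenomedullin family (2.44), had 100% of their PHC1 coverage on their own strand. ADM5 had 37.3 and 40.5 in PHC1, 15.9 in 4SU and 6.70 and 6.00 in RNA. GLUD1P3, a glutamate dehydrogenase pseudogene (2.09), shares sequence with its parent gene and is uncertain.

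ZNF703, a zinc finger cofactor of transcription, had 432 in PHC1 replicate 1 and 163 in replicate 2, 112 in 4SU, 15.7 in 6SG and 28.5 and 28.1 in RNA (3.18, SE 0.51, limma adjusted p = 0.00571). A single cluster gave 54.9% of its coverage in replicate 1 and 13.0% in replicate 2, and with clusters counted in place of summed its fold was 0.060. Its call was also lost without either RNA replicate (limma adjusted p = 0.20 in both cases). The highest PHC1 coverage of any transcribed short gene was at HMGB2, a chromatin protein of the high mobility group, singled out after its values were seen: 1113 and 314 in PHC1, 289 in 4SU, 6444 in 6SG and 209 and 206 in RNA. Its 6SG value came from 2 clusters. The PHC1 values of HMGB2 differed from each other more than the lower one differed from RNA, and the difference of 1.51 was not called (limma adjusted p = 0.098). With clusters counted it was called lower (−2.72), and without PHC1 replicate 1 (0.59) or 2 (2.42) higher.

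Of noncoding genes, 44 of the 45 transcribed short lncRNA genes were tested, and 30 were lower and 5 higher. Of all transcribed short genes tested, 83.1% were lower and 4.37% higher. The lncRNA genes had a median difference of −1.82, against −2.59 for 623 protein-coding genes. Their 4SU over RNA median was −0.53, against −1.34. LINC00662 had 27.5 and 36.0 in PHC1, 58.7 in 4SU and 20.2 and 19.5 in RNA (0.64, limma adjusted p = 0.032), a call lost with totals as scaling, with clusters counted, without the largest cluster and without either RNA replicate. KMT2E-AS1, antisense to a histone methyltransferase-like gene, had 35.9 and 37.0 against 21.5 and 22.0 (0.72, limma adjusted p = 0.0059), lost with totals as scaling and without either RNA replicate. LINC00987 had 22.1 and 16.4 against 20.3 and 19.7 (−0.07, not called), with 10.1% and 16.9% of its PHC1 coverage on its own strand, and HOXA11-AS 9.21 and 10.4 against a mean of 51.6 in RNA (SD 1.98, n = 2; −2.28). LINC00987 was called lower with its own strand alone (−2.39), totals as scaling (−0.55), clusters counted (−0.94), without the largest cluster (−0.88) and without PHC1 replicate 1 (−0.27). How the counting of RNA used strand is not given here, so reads of an antisense gene and its partner may be mixed. The 24 transcribed pseudogenes had RNAPII 4SU coverage above RNA (median 0.52) but PHC1 below it (−1.87), and reads of either kind may be split among near-identical copies.

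Against RNAPII PAR-CLIP the short genes were low in PHC1 when compared with the 4SU library, while the 6SG library, at 0 in most of them, gave a median difference of 0. Both PHC1 values lay below the RNAPII 4SU value in 521 of the 698 transcribed short genes (74.6%), against 50.1% of longer genes, and above it in 74 (10.6%), against 40.6%. The median log2 difference of PHC1 from 4SU was −1.04, against −0.17 in longer genes. From 6SG alone it was 0, and from both libraries −0.39, or −0.045 without the largest cluster of each gene. With 4SU as the only control, the limma fit over 8511 genes called 166 of 398 short genes tested with 5 CPM or more lower and 25 higher, where 27.1% of all genes tested were lower and 33.2% higher, and 30.3% and 27.7% of those with 5 CPM or more. With 1 control library, that library was assumed to vary like the PHC1 pair. To enter this fit a gene needed 5 CPM in 2 libraries, and so in at least 1 PHC1 library. Short genes with 4SU coverage but less PHC1 coverage than that could not be called lower, and a gene could enter through PHC1 alone. The counts thus cover only part of the 698 genes. With both RNAPII libraries as the control, as the series design has it, 0% of the 8772 genes tested were called in either direction. At an unadjusted limma p under 0.05, 57 of the 445 short genes tested with 5 CPM or more were lower and 10 higher. Of the 7666 genes of any length tested with 5 CPM or more, 631 were lower and 813 higher at that threshold. The 6SG library had no cluster at 380 (54.4%) of the transcribed short genes, against 29 (4.15%) for 4SU.

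C1QL4 and KIF4B were among the short genes that lay furthest from RNAPII in the fit to both of its libraries. C1QL4, a secreted C1q-like protein whose RNA was under 5 CPM, had 52.9 and 81.8 in PHC1, 4.35 in 4SU and 14.3 in 6SG (2.89, SE 0.87, limma adjusted p = 0.20). KIF4B, an intronless copy of the kinesin KIF4A, had 9.41 and 4.96 in PHC1, 70.9 in 4SU and 156 in 6SG (−3.75, SE 0.76, limma adjusted p = 0.14), and its reads may belong to KIF4A. Neither passed with both libraries as the control. Against 4SU alone, a control with no replicate, the differences were 3.64 for C1QL4 and −3.19 for KIF4B.

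Of the 1473 short genes under 5 CPM, 1198 (81.3%) had no PHC1 cluster in either library and 164 had one in both. Gene families known to be silent in such cells were so here: none of 54 olfactory receptor, 16 keratin-associated, 19 protocadherin and 20 chemokine genes reached 5 CPM, and PHC1 clusters in both libraries were found at none of the olfactory receptor and keratin-associated genes, 1 protocadherin and 2 chemokine genes. In the test 58 of the 1473 were called higher, but each entered it through its PHC1 value alone. Such entry fixes the direction, though not the call, so the count says nothing of the rest. The other 1415 were not tested.

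The highest PHC1 coverage under 5 CPM was at LINC00273 (chr16:33961052-33962503, hg19), with 596 and 284 CPM in PHC1, 83.1 in 4SU and no read in either RNA library. All of its PHC1 coverage lay on the opposite strand. TPPP3, a tubulin-binding protein, had 402 and 233 in PHC1, 161 in 4SU and 0.972 and 0.809 in RNA, from 2 clusters in each PHC1 library. HSD3B7, an enzyme of bile acid synthesis, had 127 and 95.8 in PHC1, 31.1 in 4SU and 2.22 and 1.98 in RNA, from 20 and 24 clusters that all lay on its strand. WFIKKN1 (60.0 and 58.4 in PHC1, 3.27 and 3.13 in RNA) and RHBDL1 (62.0 and 54.6 in PHC1, 3.38 and 3.62 in RNA) also lie on chromosome 16. C1QL4, described above, ranked between HSD3B7 and WFIKKN1 and lies on chromosome 12. Where strand was known among short genes under 5 CPM, 43.3% and 52.4% of the PHC1 coverage was on the strand of the gene, against 75.4% for RNAPII 4SU. LINC00273 is part of these sums. Gene by gene, 73 of 135 with coverage in replicate 1 (54.1%) and 64 of 114 in replicate 2 (56.1%) had all of it on their own strand, and 55 (40.7%) and 47 (41.2%) had most of it on the other.

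Promoter ChIP scores of the short genes resembled those of longer genes with the same RNA status. Scores are reads per 10M minus input, 1 library or 1 pooled column per target, so they carry no replicate test. The transcribed short genes had a median RNAPII score of 12.3 (11.0 in longer genes) and an H3K4me3 score of 50.1 (48.1). H3K27me3 stood at −1.86 (−1.91) and EZH2 at −0.42 (−0.44). The authors' pooled PHC1 score had a median of 0.07 (−0.08), and the pooled PHC1-dFCS score 1.34 (1.13). In the short genes under 5 CPM the medians were 0.84 for RNAPII, −0.11 for H3K4me3, −0.49 for H3K27me3, 0.56 for EZH2, 0.21 for PHC1 and 1.07 for PHC1-dFCS. Values before subtraction of input show how little PHC1 varied: 5.97 reads per 10M in the transcribed and 5.86 in the other short genes. RNA status thus separated the promoters by RNAPII and H3K4me3, and PHC1 scores of both groups stayed around 0.

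**Figure D5:**
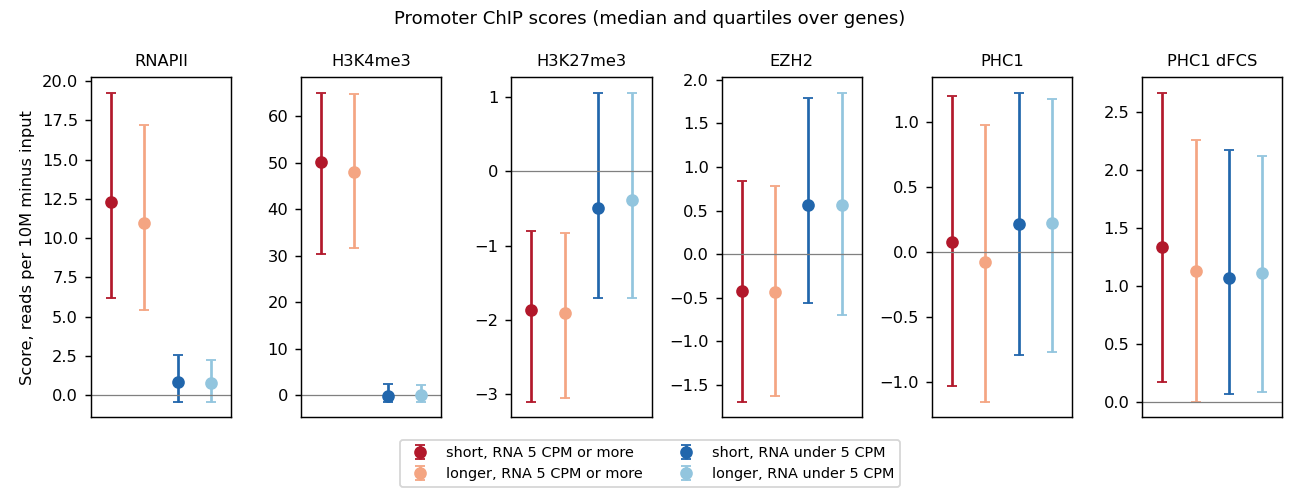
Median and quartiles over genes of the promoter ChIP score, in reads per 10M minus input, 1 panel per target with its own y axis, for short and longer genes with RNA of 5 CPM or more and under 5 CPM. RNAPII and H3K4me3 separate the groups by RNA and not by length, and the PHC1 medians lie near 0 in all 4 groups.

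H3K4me3 reached 2 times the input reads at 638 (91.4%) of the transcribed short genes and 303 (20.6%) of the others, and H3K27me3 at 5 and 46. Among the transcribed, the 60 short genes without H3K4me3 had a median PHC1 difference from RNA of −1.29, against −2.60 for the 638 with it. The 60 also had less RNA, with a median of 10.3 against 31.0 CPM, and 31 of them were protein-coding, against 592 of the 638. RNAPII 4SU over RNA differed in the same direction, at −0.008 against −1.33. A link of PHC1 to H3K4me3 was not tested. The highest H3K27me3 scores were at NEUROG3 (12.5) and PCDHB1, a protocadherin (11.9), and the highest EZH2 scores at PRR20E (10.0) and USP17L6P (9.23), 4 genes with at most 0.0610 CPM of RNA, of which the last 2 belong to families of near-identical copies. NEUROG3 also had an H3K4me3 score of 23.2. PHC1 scores were highest at TTC3P1, a pseudogene (5.85), and MISP3 (5.72), where the median was 0.07 or 0.21, and neither gene had PHC1 coverage in PAR-CLIP above 0.813 CPM. No start site had fewer than 10 reads in EZH2, H3K27me3, H3K4me3, RNAPII or input when the scores were decoded, so a constant may have been added to the authors' reads, which would shrink every ratio to input.

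The ratio of PHC1-dFCS to PHC1 ChIP, taken before subtraction of input, had a median log2 of 0.28 over the transcribed short genes, 0.20 over the others and 0.24 over all genes of the table. Both columns pool 2 replicates and how they were scaled is not given in the sources used here, so this is the authors' value with no error of its own. ATF4 combined a high dFCS score (7.60) with a PHC1 score of 2.92, and SBSN, with the highest dFCS score (8.91), had a PHC1 score of 4.92 and 0.455 CPM of RNA.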

How the data were processed

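Per the labels' protocols and the submitters' processing notes, the authors aligned to hg19, and Bowtie 0.12.7, Bowtie2 2.2.3, TopHat2 2.0.11 and SAMtools 0.1.19 are among the tools named. The deposited values are of 4 kinds. PAR-CLIP files list clusters with a score that is the mean coverage per base, made by the authors from each library. RNA files hold the authors' raw read counts per gene, and which features were counted and with which strand setting is not given in the sources used here. The deposited ChIP table gives scores per start site in reads per 10M minus input. The pooled RNA column beside the raw read counts, the authors' log2 value of reads scaled for length and library size, served only as a check.

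Cluster coverage times length was summed over a region by cluster midpoint, on either strand. Sums and counts were scaled with TMM (edgeR 4.0.16), logged with 1 added, and tested with limma 3.58.1 (trend, robust) in R 4.3.3 where 2 libraries of the fit reached 5 CPM. P-values were adjusted by Benjamini-Hochberg across the whole table, and 0.05 was the threshold. The fit was tested on simulated data. Replicate numbers did not pair the samples. Tables were summarised in Python 3.11.15 with pandas 2.3.3.

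The short genes and the gene lists were chosen with earlier results of these data known. Named genes are the 8 highest and 8 lowest of the PHC1 over RNA fit, the 6 with most RNA, up to 3 per gene list, the 6 with most PHC1 coverage under 5 CPM, the 4 highest per ChIP column, the 3 on each side of the length limit, and the 4 highest and lowest against RNAPII, with a few left out for space and some items not reported here. HMGB2 and the HOX family were added after their values were seen. Alternatives changed the scaling, added constant, filter, cluster measure, length limit, strand and libraries. No hg19 genome was used here, so no cluster sequence was read.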

Additional observations from a re-analysis of the deposited data

How the results depend on the processing

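The direction of PHC1 against RNA over the transcribed short genes held under every alternative. The count of higher genes (30) was 18 with totals as scaling and ran from 19 to 62 when 1 library was left out, and that of lower genes (570) from 265 to 628. The median (−2.54) was −2.80 with totals, −1.61 with 5 added, −2.19 with clusters counted, −2.87 without each gene's largest cluster, and −2.62 to −2.32 with 1 library left out. With a replicate block, although the numbers do not pair the samples (correlation 0.038), 28 were higher and 575 lower. Against RNAPII, where no gene passed with both libraries, 25 were higher and 166 lower with 4SU alone, and 146 and 157 with 6SG alone. The 6SG counts have no share over all genes beside them and so show no excess in either direction. The 6SG library had no cluster at 380 (54.4%) of the transcribed short genes. Such a gene could enter the 6SG fit only through PHC1, which fixes its direction as higher. The median against RNAPII (−0.39) was −0.045 without the largest cluster, −1.04 with 4SU alone and 0 with 6SG alone. The 4SU over RNA median (−1.27) was −1.54 with totals, −0.99 with 5 added, −1.06 with clusters counted, −1.57 without the largest cluster, −1.32 at a limit of 4000 bases and −1.22 at 6000. ChIP medians before subtraction of input were 18.4 (RNAPII), 56.5 (H3K4me3), 3.95 (H3K27me3), 5.53 (EZH2), 5.97 (PHC1) and 7.25 (PHC1-dFCS) in transcribed short genes, and 6.45, 5.36, 5.11, 6.11, 5.86 and 6.72 in the others. H3K4me3 was 49.4 at 4000 bases and 51.2 at 6000, and the PHC1-dFCS over PHC1 log2 ratio under 5 CPM (0.20) was 0.073 over start sites at or above the median PHC1 value. Of 719 values of 58 named genes under the alternatives, 648 kept direction and side of the threshold, 28 lost and 30 gained the call, and 13 turned sign. Those were ATP5F1D, BTG2, LINC00987 and ZIC2 with 1 PHC1 library left out (−1.98 to 0.56, −0.39 to 0.061, −0.27 to 0.14 and −0.14 to 0.55), and BTG2 (0.15), PPM1M (−0.82) and ACP4 on the strand of the gene, an alternative chosen after seeing the data. ACP4 is then at 0 in both PHC1 libraries, so that its −3.33 is set by the added 1. With clusters counted HOXD10 (−1.50), HMGB2 (−2.72) and ZIC2 (−0.33) turned, with totals ZIC2 (−0.31) and HOXD10 (−0.35), and without the largest cluster HOXD10 (−0.052). The cause of these shifts was not tested. With 2 libraries a group, cluster files without reads and single ChIP libraries, small differences could not be detected.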
